A study of Mus musculus with 2 samples.

Results

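ZBTB genes encode transcription factors that pair a BTB domain, which dimerises and recruits corepressor complexes, with zinc fingers that bind DNA. They were compared between 1 library labelled Nr4a-deficient and 1 library labelled wild type, both of sorted mouse regulatory T (Treg) cells. Members were all gene probes whose array name began with Zbtb and a digit, with no selection on signal. There were 38 such genes among the 30119 gene names on the array, read by 63 probes in 81 spots on each array. Of these genes, 32 were well above background on both arrays, 3 in the Nr4a-deficient library only and 0 in the wild-type library only, and 3 on neither. Detection also leaned the same way over all gene probes: 58.7% passed on the Nr4a-deficient array, against 55.6% on the wild-type array. The lowest signals above background were 51.1 and 73.8, in the same order. Whether 3 against 0 departs from this array-wide lean was not tested.

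Several family members are known for setting lymphocyte fate. Zbtb7b (ThPOK) holds CD4 T cells in their lineage, Zbtb16 (PLZF) drives innate-like T cells such as NKT cells, and Bcl6, a relative with another name, drives follicular helper T cells. Nr4a genes encode orphan nuclear receptors that are induced by T cell receptor signalling and act in Treg development.

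The Nr4a-deficient library came from mice carrying a combined Nr4a knockout (Nr4a-TKO) and the wild-type library from wild-type mice, all 5 weeks old. The cells were lysed straight after sorting, and RNA was amplified, labelled with the dye Cy3 and hybridised to single-colour Agilent arrays. The sources used here do not give the sort markers, the tissue, the strain, the cells in which the Nr4a genes were deleted or how many animals made up a library. With 1 library per group there is no replicate check, no difference was tested, and fewer cells of a type cannot be told apart from less RNA per cell.

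Of the targeted genes, Nr4a1 and Nr4a2 went against the label. Nr4a1 had a signal of 80407 (Nr4a-deficient) against 51441 (wild type), which was 1.82-fold higher after scaling, and the 2 Nr4a2 probes were 1.97-fold and 1.60-fold higher. Nr4a3 read 22.3 and 71.6, and neither array had it well above background. Whether these probes lie in the deleted parts was not tested. Among 9 measured Treg genes, Foxp3, which defines the lineage, read 74.5 and 85.4 (log2 difference 0.02), while Ikzf4 and Il2ra were lower by over 2-fold (-2.67 and -1.27). Both Foxp3 signals lay near the lowest signal above background of their arrays (51.1 and 73.8). This Foxp3 probe therefore cannot show that the gene was unchanged. Markers of other cells also differed: 9 of 11 measured plasmacytoid dendritic cell genes were at least 2-fold higher in the Nr4a-deficient library, and 7 of 10 macrophage and monocyte genes and 3 of 4 erythroid and platelet genes were at least 2-fold lower. The macrophage gene Lyz2 went the other way, at 936 against 534 (1.03). Summed intensities, here and below, were not scaled between the arrays, so they do not set the direction of a small difference. They were 223172 against 175735 for the plasmacytoid dendritic list, or 86333 against 27866 without its brightest gene Siglech. The 3 Siglech probes differed by 0.11 to 6.63. The macrophage list summed to 52593 against 139634. The part of such cells in the results was not tested.

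ZBTB genes differed little between the libraries. Values are log2 differences, Nr4a-deficient minus wild type, after the 75th percentile of each array's gene probes (intensity 1757 in the Nr4a-deficient against 2042 in the wild-type library) was set to 0; a gene is represented by its brightest probe. Of the 32 genes measured on both arrays, 0 reached 2-fold in either direction, where 5.70% of all 16298 measured genes did (2.65% higher and 3.05% lower). At 1.5-fold there were 3 ZBTB genes, Zbtb32 and Zbtb3 higher and Zbtb37 lower, which is 9.375% of the family against 12.1% of all genes (5.81% higher and 6.32% lower). These shares are near the background, so the counts set the family apart from other genes in neither case.

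The median difference was 0.04 over the ZBTB genes and -0.01 over all genes. Differences lay between -0.88 and 0.73, with 18 genes above 0 (56.25%, against 47.9% of all genes) and 14 below. Their SD was 0.31, against 0.54 over all genes, and 75% were within 0.3 of 0, against 70.4%. The SD was also smaller at each level: 0.23 against 0.37 among genes above the 75th percentile, 0.41 against 0.64 among those up to 4-fold under it, and 0.31 against 0.71 among dimmer ones. These groups held only 16, 8 and 8 ZBTB genes. In the same order, the median absolute differences lay closer: 0.11 against 0.14, 0.15 against 0.19 and 0.22 against 0.28. Across the 32 genes the levels in the 2 libraries correlated with r = 0.99, a description over probes that share the same 2 arrays. Spike-in RNAs put the arrays 0.37 ± 0.06 (SD, n = 8 RNAs) apart from this scale. On the spike-in scale the ZBTB median was -0.34 and that of all genes -0.39. There, 4 ZBTB genes were above 0, or 12.5%, against 11.1% of all genes.

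**Figure D1:**
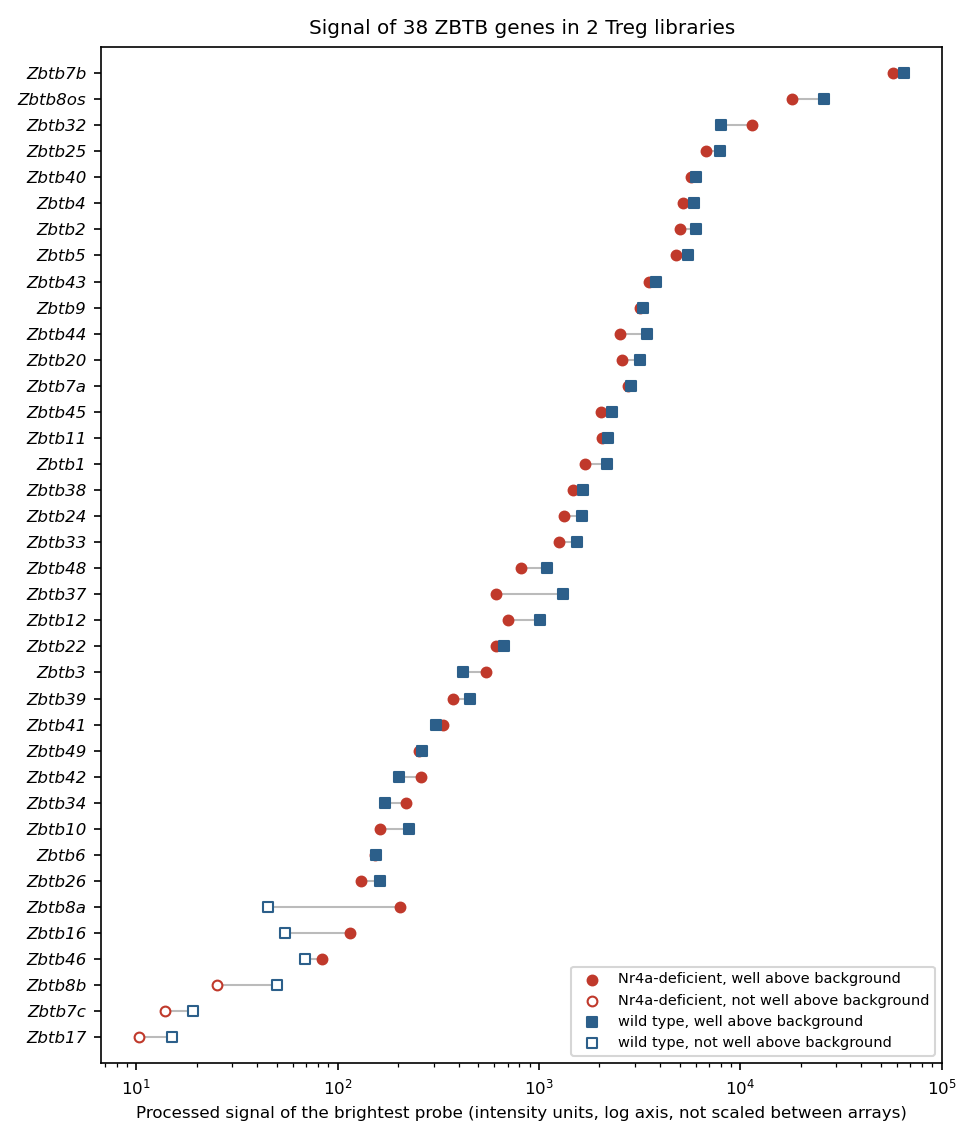
Processed signal of the brightest probe of each of the 38 ZBTB genes, on a log axis and not scaled between arrays, with a circle for the Nr4a-deficient and a square for the wild-type library; open symbols are not well above background. Most pairs lie close together, with the wild-type signal a little higher, as is the 75th percentile of that array.

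**Figure D2:**
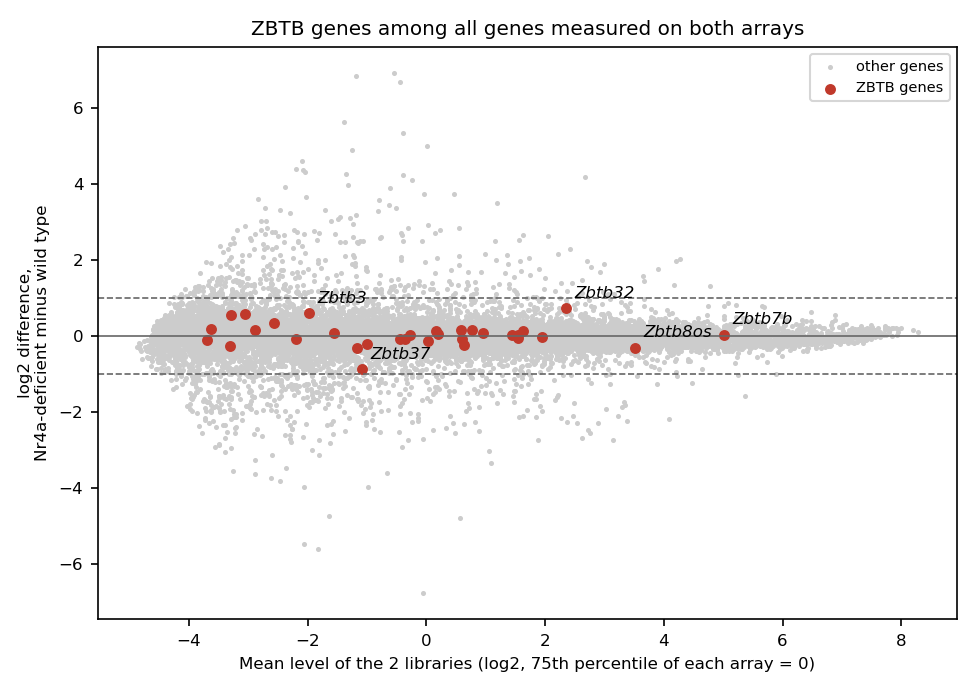
Log2 difference (Nr4a-deficient minus wild type) against mean level for all 16298 genes measured on both arrays in grey and the 32 ZBTB genes in red; dashed lines mark 2-fold. All 32 ZBTB genes lie between the dashed lines.

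Zbtb7b, the CD4 lineage factor, read 57712 in the Nr4a-deficient against 65286 in the wild-type library (0.04). Its other probes read 4431 and 4528 (0.19), and 603 and 573 (0.29). All 3 lay on the same side of 0 on this scale, but the first was -0.05 with the median as the scale and -0.33 on the spike-in scale. Zbtb7a (LRF), which acts beside ThPOK in CD4 T cells, read 2782 and 2869 (0.17) and, at its other probe, 855 and 745 (0.42). Of 15 genes of the CD4 and CD8 lineage programme, 14 were within 2-fold: Cd4 differed by 0.12, Cd8a by 0.51 and Runx3, the CD8 lineage factor, by -0.27. The exception was Gzmb, the cytotoxic protease granzyme B, at 47848 in the Nr4a-deficient against 3041 in the wild-type library (4.19). These counts use the brightest probe. The 2 Eomes probes differed by -0.38 and -2.83, so the size of its difference is not settled.

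Zbtb32 (ROG), a repressor known for binding GATA3 and restraining T cell activation, had the largest positive difference of the genes measured on both arrays. It read 11500 in the Nr4a-deficient against 8062 in the wild-type library, 1.66-fold higher (0.73), and 8.92% of all genes had a larger difference in size. Spots at this level differ between the arrays with an SD of 0.076, which covers only the array. The difference was 0.36 on the spike-in scale. Zbtb32 is also expressed in B lineage and NK cells, and 3 of 12 measured B cell genes, 2 of 6 plasma cell genes and 1 of 8 NK and CD8 genes were at least 2-fold higher, with Pax5, Blk, Sdc1 and Ncr1 above background on neither array. The NK receptor genes Klrd1 (832 against 42.9) and Klrk1 (637 against 36.4) were above background in the Nr4a-deficient library only, with log2 bounds of 3.71 and 3.33, as was the plasma cell gene Tnfrsf17 (73.0 against 15.5, at least 1.15-fold). Without scaling, the B cell list summed to 31772 against 21254, the plasma cell list to 41270 against 44114, and the NK and CD8 list to 29504 against 18145. After scaling, the median differences of their genes measured on both arrays were 0.83, 0.19 and 0.25. The part of these lists in the Zbtb32 difference was not tested. Gata3 itself differed by 0.39. The start of the only Zbtb32 probe (60 bases, mm9, chr7:31374702-31374761, minus strand) is given below. Under it are the 250 bases before one of the 2 annotated Zbtb32 starts (RefSeq, GRCm38.p6, chr7:30598910-30599159, minus strand), with CG dinucleotides in capitals. This window held 5 CG, against a median of 20 over ZBTB windows and 6 over all windows.
Zbtb32 probe, first 30 bases: gtgaagattaactggggactgtcaatttca
Zbtb32 upstream: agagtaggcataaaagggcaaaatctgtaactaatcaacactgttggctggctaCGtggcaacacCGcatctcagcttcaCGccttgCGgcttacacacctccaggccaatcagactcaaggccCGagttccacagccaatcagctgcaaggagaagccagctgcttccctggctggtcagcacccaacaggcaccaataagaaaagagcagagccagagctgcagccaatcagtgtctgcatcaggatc

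Zbtb8a, a member of little known function, was the only ZBTB gene whose bound passed 2-fold, and no gene measured on both arrays did. It read 203.5 in the Nr4a-deficient library, well above background, and 45.3 in the wild-type library, which was not, so it was at least 3.20-fold higher; among all genes above background on 1 array only, 38.2% had a bound of 2-fold or more. It rests on 1 probe, and the bound was 0.75 on the log2 scale, under 2-fold, with normexp and quantile normalization. Its neighbours, with no coding gene between, gave other values: Zbtb8os read 18119 and 26075 (-0.31) and 9224 and 12765 (-0.25) at 2 probes that overlap by 15 bases, and Zbtb8b, at 25.3 and 50.1, was above background on neither array. Zbtb8os encodes archease, a cofactor of tRNA ligation with neither a BTB domain nor zinc fingers, and is a member by name only. The Zbtb8a probe (mm9, chr4:129031163-129031222, minus strand) and its upstream window (GRCm38.p6, chr4:129378029-129378278, minus strand) are given below, again with CG in capitals.
Zbtb8a probe, first 30 bases: tgctgttggcatgacagatgatcaattacc
Zbtb8a upstream: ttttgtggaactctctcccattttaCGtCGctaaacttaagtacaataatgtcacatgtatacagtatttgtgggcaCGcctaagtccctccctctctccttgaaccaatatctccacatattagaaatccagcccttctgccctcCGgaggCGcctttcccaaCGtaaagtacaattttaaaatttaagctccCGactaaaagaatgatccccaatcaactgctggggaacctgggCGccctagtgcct

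The other 2 genes seen in the Nr4a-deficient library only were dim. Zbtb16 (PLZF) read 115.8 in the Nr4a-deficient against 54.6 in the wild-type library, at least 1.82-fold higher. Of 8 measured innate-like T cell genes, Cxcr6 was at least 2-fold higher (1.90) and Il18r1 lower (-1.02), Il23r and Il1r1 were above background on neither array, and Xcl1 in the wild-type library only. That list summed to 47074 in the Nr4a-deficient against 36366 in the wild-type library. Without its brightest gene Cxcr6 the sums went the other way, at 19930 against 27929. Zbtb46, known for marking conventional dendritic cells, read 84.1 and 68.7, at least 1.32-fold higher, and its other probe was above background on neither array (13.7 and 19.2). Of 8 measured conventional dendritic cell genes, Itgax (2.65), Clec9a (2.50) and Wdfy4 (1.38) were at least 2-fold higher. The other 5 were within 2-fold: Flt3 (0.43, with a probe at 3.98), Cst3 (-0.02), Batf3 (-0.08), Cd24a (-0.09) and Sirpa (-0.58). Cd209a and Clec10a were above background in the Nr4a-deficient library only, and Xcr1 on neither. The summed intensity of the list was 35888 in the Nr4a-deficient against 28491 in the wild-type library, or 22689 against 12920 without its brightest gene Cst3. The part of dendritic cells in the Zbtb46 signal was not tested.

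Zbtb37, another member of little known function, had the largest negative difference, and its 3 probes disagreed in size. The probe of the transcript ENSMUST00000064713 read 614.1 in the Nr4a-deficient against 1311 in the wild-type library, 1.84-fold lower (-0.88). The 2 probes of NM_173424 read 561.3 and 788.6 (-0.27), and 225.7 and 272.1 (-0.05). The mean of the 3 was -0.40, and on the spike-in scale the first was -1.25. The 3 probes lie apart on the minus strand of chromosome 1 (mm9, chr1:162939470-162939529, chr1:162947900-162947959 and chr1:162949418-162949477) and begin as follows, in that order.
Zbtb37 probe of ENSMUST00000064713: gagaatgacgtgttttctataagtcataga
Zbtb37 probe of NM_173424, first: attactgatcaggcaggtagctgacacgta
Zbtb37 probe of NM_173424, second: tacttgcctagttgtttcatgtgatcagct

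**Figure D3:**
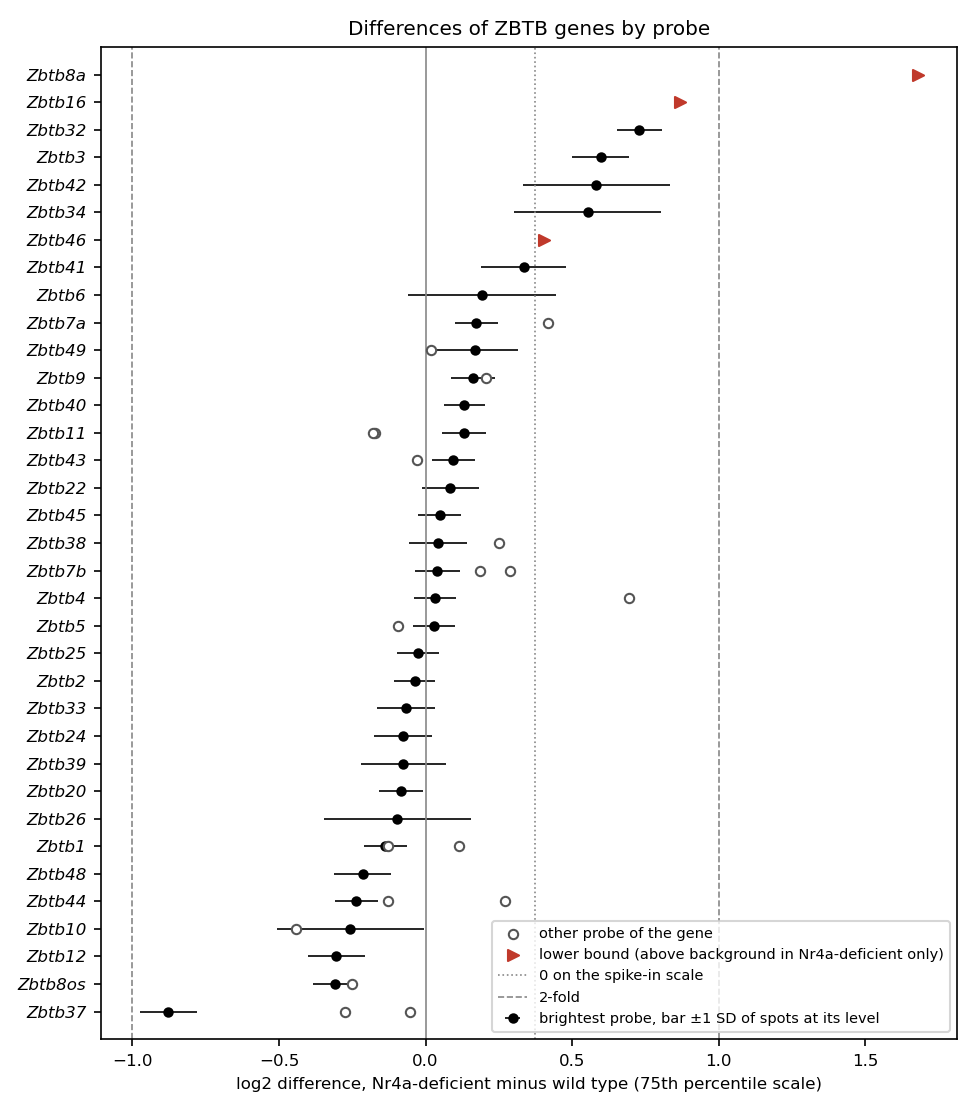
Log2 difference (Nr4a-deficient minus wild type) of the 35 ZBTB genes above background on at least 1 array. Filled circles are the brightest probe with ±1 SD of spots at its level, open circles other probes above background on both arrays, and triangles lower bounds. The other Zbtb42 probe, above background in the wild-type library only, is not drawn. Zbtb8a is the only gene past the 2-fold line, and Zbtb37 and Zbtb4 show probes of 1 gene lying far apart.

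Zbtb3 read 547 and 420 (0.60), Zbtb34 218 and 173 (0.55), and Zbtb41 333 and 307 (0.33). Zbtb41 was read by 10 spots. Without scaling they ranged from 300.8 to 401.7 in the Nr4a-deficient library, and from 290.0 to 334.6 in the wild-type library. These raw ranges overlapped. After scaling (to intensity 1757 in the Nr4a-deficient against 2042 in the wild-type library) they did not, and all Nr4a-deficient spots lay higher. On the spike-in scale the difference of Zbtb41 was -0.04, so its direction depends on the scale. Zbtb42, known from muscle, read 260 and 202 at 1 probe (0.58), but 30.3 and 94.4 at the other, where only the wild-type library was above background, at least 1.59-fold lower in the Nr4a-deficient library. These 2 probes point in opposite directions. Zbtb43 was also read by 10 spots and differed by 0.09, and by -0.03 at its other probe.

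The 3 readers of methylated DNA differed little at their brightest probes. Zbtb33 (Kaiso) read 1263 in the Nr4a-deficient against 1538 in the wild-type library (-0.07), Zbtb38 read 1471 and 1662 (0.04), and Zbtb4 read 5190 and 5900 (0.03). Zbtb38 had a further measured probe at 925 and 904 (0.25), and its remaining 2 were above background on neither array. Zbtb4 had a second probe at 1006 and 722 (0.69), with the third on neither array. Zbtb24, whose loss causes the ICF immunodeficiency in humans, read 1337 and 1639 (-0.08). Of 12 methyl-CpG readers, DNA methyltransferases and ICF genes, 11 were within 2-fold (median -0.10), and Ctnnd1, p120 catenin and a Kaiso partner, read 369 and 1323 (-1.63).

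Zbtb17 (Miz-1), the MYC partner at cell cycle inhibitor genes, read 10.4 and 15.0, and neither array had it well above background, so its level is not known from this probe. Of 11 measured MYC and Miz-1 partners and targets, 3 were at least 2-fold higher, all cyclin-dependent kinase inhibitors: Cdkn1a at 525 and 184 (1.73), Cdkn2b at 368 and 147 (1.54) and Cdkn1c at 4917 and 1571 (1.86). A second Cdkn1a probe differed by -3.76, so that gene has no settled direction. Myc read 3705 and 6309 (-0.55).

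Zbtb1, needed for lymphoid development, read 1703 and 2178 (-0.14), with other probes at -0.13 and 0.11. Zbtb25, its neighbour on chromosome 12, read 6739 and 7981 (-0.03). Zbtb20, which acts in plasma cells and liver, read 2590 and 3191 (-0.08). Zbtb44 read 2520 and 3451 (-0.24), with other probes at -0.13 and 0.27. The remaining genes of several probes were Zbtb10 (-0.26 and -0.44), Zbtb11 (0.13, -0.17 and -0.18), Zbtb5 (0.03 and -0.10), Zbtb9 (0.16 and 0.21) and Zbtb49 (0.17 and 0.02, with 1 probe on neither array). Genes with 1 probe and no role given here were Zbtb12 at 702 and 1008 (-0.30), Zbtb48 at 812 and 1096 (-0.22), Zbtb26 (-0.10), Zbtb39 (-0.08), Zbtb2 (-0.04), Zbtb45 (0.05), Zbtb22 (0.08), Zbtb40 (0.13) and Zbtb6 (0.19). Zbtb7c, at 13.9 and 19.2, was above background on neither array. Among 14 genes with several probes measured on both arrays, the probes of 9 shared a sign, and the median range between probes was 0.23.

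Zbtb14, Zbtb18 and Zbtb21 are on the array as Zfp161, Zfp238 and Zfp295. Zbtb14 read 2785 in the Nr4a-deficient against 2871 in the wild-type library (0.17), Zbtb18 read 2580 and 3532 (-0.24), and Zbtb21 was dim. Among 14 measured BTB relatives under other names, of which Zbtb49 is also a member here, 0 reached 2-fold, which in so few genes is near the 5.70% of all genes, and the median was -0.01. Bcl6 differed by 0.30 and Bach2, which restrains effector differentiation, by -0.46. Of 18 corepressor subunits and Cul3, the partner of BTB proteins in ubiquitin ligation, 0 reached 2-fold, again near that background, and the median was 0.02. Ncor1 differed by 0.16, and the 3 probes of Hdac1 lay between -0.44 and 0.47, so its direction is not settled. The 3 probes of Mta3 lay between 0.02, at the brightest, and 1.14.

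**Figure D4:**
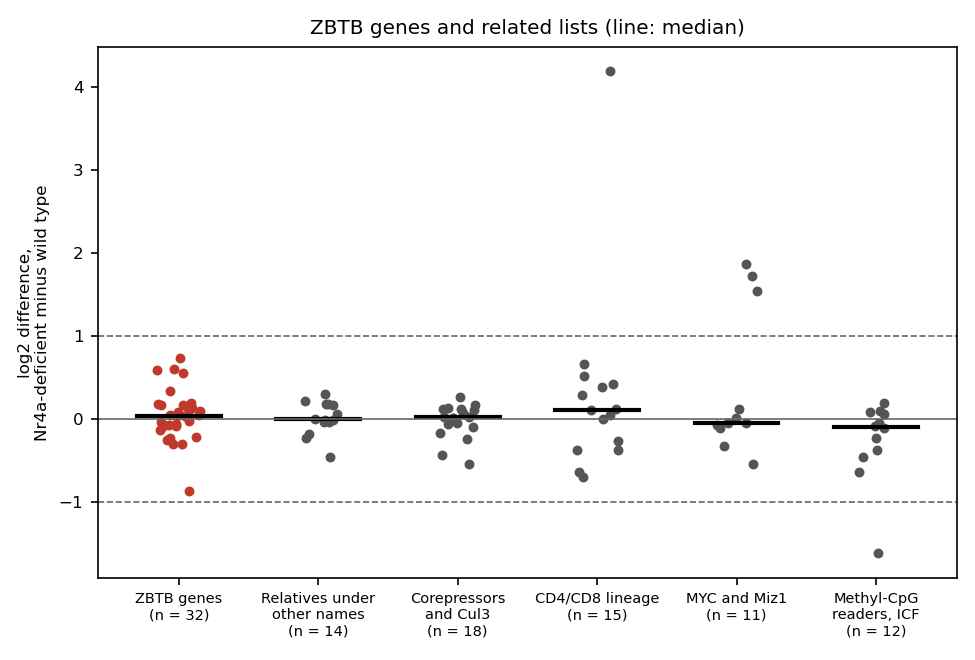
Log2 difference (Nr4a-deficient minus wild type) of the 32 ZBTB genes in red and of 5 related lists in grey, each point a gene measured on both arrays and each line the median; dashed lines mark 2-fold. Medians lie near 0, and the points past 2-fold are Gzmb, the 3 kinase inhibitors and Ctnnd1.

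Promoter windows were at hand for 33 of the 38 genes (40 windows, 250 bases before the start, RefSeq, GRCm38.p6). The NBRE, the element that NR4A monomers bind (AAAGGTCA on either strand, TGACCTTT reversed), was in 0 of them and in 1.34% of all 32851 windows. ZBTB windows held a median of 20 CG dinucleotides, against 6 over all windows. Of the measured genes whose windows all held under 10 CG, a limit chosen after the values were seen, Zbtb32 and Zbtb3 passed 1.5-fold and Zbtb20 and Zbtb7b did not; of the 25 others, 1 did. Over all genes the shares were 20.4% of 2833 and 8.69% of 7438. The classes also differed in level, with medians of -0.89 and 0.53 over all genes and 1.47 and -0.28 over the ZBTB genes. After Zbtb25, the members richest in CG were Zbtb41 (38 CG, 0.33), Zbtb1 (33 CG, -0.14), Zbtb44 (33 CG, -0.24) and Zbtb34 (32 CG, 0.55). Zbtb25, which differed by -0.03, had the window richest in CG (GRCm38.p6, chr12:76369465-76369714, minus strand), shown with CG in capitals beside those above.
Zbtb25 upstream: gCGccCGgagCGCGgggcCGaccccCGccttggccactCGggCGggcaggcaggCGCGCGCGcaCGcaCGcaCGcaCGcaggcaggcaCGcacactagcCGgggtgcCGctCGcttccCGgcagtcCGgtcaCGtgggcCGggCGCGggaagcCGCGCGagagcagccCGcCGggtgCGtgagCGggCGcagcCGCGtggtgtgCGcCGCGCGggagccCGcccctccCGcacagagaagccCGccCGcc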

How the data were processed

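Both arrays were deposited as scanner files of intensity values per spot, made per the file headers with Agilent Feature Extraction 10.7.3.1 (background subtracted, probe coordinates mm9), on 1 slide in 1 scan. The deposited value table, also in intensity units, matched them within 1% for 99.6% (Nr4a-deficient) and 99.5% (wild type) of probes. No replicates exist, so nothing was tested. Array precision is limited by their number.

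Log2 of the deposited processed signal was averaged over the spots of a probe, leaving out outlier spots, and scaled to each array's 75th percentile. A probe counted as above background when over 50% of its spots were so marked. A gene took its brightest such probe; where only 1 array passed, the other was set no lower than its lowest signal above background, and the difference is a bound. Names were updated through RefSeq by accession (27234 probes), symbol (3576) or synonym (565), and 8054 kept the array's name. All ZBTB genes could be named, and related genes past 2-fold or first in their list. Cd8a, Runx3, Eomes, Gata3, Myc, Bach2, Ncor1, Hdac1, Mta3 and some markers were chosen after their values were seen. Members and lists were chosen with earlier results of these data known. Calculations used Python 3.11.15, pandas 2.3.3, R 4.3.3 and limma 3.58.1 (loess and normexp alternatives), and were tested on simulated data.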

Additional observations from a re-analysis of the deposited data

How the results depend on the processing

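No ZBTB gene measured on both arrays reached 2-fold under the median as scale, cyclic loess, normexp with quantile normalization, the deposited value table, the mean of probes, outlier spots kept, or probes counted in place of genes. The count was 1 (Zbtb37, lower) with spike-ins as scale, 1 (Zbtb8a) with bounds for dim values, 2 (Zbtb8a and Zbtb16) with no filter, 2 with measured values of dim probes, and 3 at 1.5-fold. The median was -0.34 on the spike-in scale; it was -0.05 with the median as scale and -0.03 with the mean of probes, so its sign is not settled. Of 347 values of single genes under the alternatives, 66 moved by more than the spot SD, 32 of them on the spike-in scale, and 25 changed sign. Zbtb32 ranged from 0.36 to 0.78, Zbtb37 from -1.25 to -0.40 and Zbtb42 from -0.42 to 0.58. Measured values of dim probes, leaving out Zbtb8os and adding genes under other names were chosen after seeing the data. No paired analysis was possible because each group had 1 library. The lowest signal of a probe above background was 51.1 (Nr4a-deficient) and 73.8 (wild type), so smaller signals have no order.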
